A study of Mus musculus with 2 samples.

Results

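High-numbered miRNA genes were described in mouse heart: the annotated genes whose symbol is Mir followed by a number of 1000 or more and that held 5 or more reads on their own strand, summed over both libraries. Of 2202 miRNA genes counted, 649 carried such a number and 111 were members. Mir1306 was left out by name, and genes on the plus strand of the Dlk1-Dio3 region of chromosome 12 and of the Sfmbt2 region of chromosome 2 were left out by position. This removed 8 of the 649 genes, of which Mir1306 (416 and 332 reads) and Mir1193 (17 and 10 reads) had 5 or more. The members were chosen by their summed reads in these libraries, so their levels are given below as a description and were not tested.

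Short RNAs were sequenced from total RNA of whole heart from male B6CASTF1/J mice, F1 hybrids of the B6 and CAST strains, aged 36 days. A free-text label gives the age in months instead. The 2 libraries form 1 untreated group and come from differently numbered males under 1 shared donor record, and the spread between them (n = 2) may be partly technical. No second tissue, age or treatment was labelled. The design therefore allows a description of these genes in heart and a comparison of the 2 libraries, with no contrast between conditions.

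A miRNA is cut from a hairpin in a longer transcript, by Drosha in the nucleus and Dicer in the cytoplasm, and its seed, bases 2 to 8 of the mature strand, pairs with target mRNAs. Numbers were given to miRNAs roughly in the order in which they were reported, so high numbers mark later discoveries, many of them made by deep sequencing. Some hairpins bypass Drosha: a mirtron is a short intron whose ends, once spliced, are the ends of the hairpin, and in a tailed mirtron only 1 end is set by splicing. Other hairpins lie within small nucleolar or Cajal body RNAs (snoRNAs and scaRNAs), which guide chemical modification of ribosomal and spliceosomal RNA. How old each gene is in evolution was not measured here.

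The annotated mature sequences of the most abundant members are printed below, some beside miRNAs that share bases with them. Reads were counted per gene, so the counts do not tell which sequence was read. Sequences are from RefSeq (GRCm38.p6), written 5′ to 3′ with the seed in capitals, and 100 of the 111 members had at least 1 mature sequence there. The 11 others are Mir3107, Mir5099, Mir1949, Mir5107, Mir8097, Mir7212, Mir7219, Mir7666, Mir1948, Mir6954 and Mir6971. The first 2 lines set the leading member beside let-7i-5p, with which it shares AGGUAG, at bases 2 to 7 of miR-1839-5p and bases 3 to 8 of let-7i-5p. The next pair shares 20 bases that start at base 2 of miR-1843a-5p and base 1 of miR-1843b-5p, so their seeds differ. The third pair has a common seed.
miR-1839-5p: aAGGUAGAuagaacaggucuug
let-7i-5p: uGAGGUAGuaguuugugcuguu
miR-1843a-5p: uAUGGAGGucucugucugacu
miR-1843b-5p: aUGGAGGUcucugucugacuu
miR-3102-5p: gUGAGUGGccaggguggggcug
miR-702-5p: gUGAGUGGggugguuggcaug
miR-1983: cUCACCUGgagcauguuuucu
miR-6236: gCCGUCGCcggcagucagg

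Each library held few of these reads. Library 1 had 1999362 reads assigned to miRNA genes on their own strand and library 2 had 1862526, and the 111 genes took 3548 and 4126 of them. That is 0.177% of library 1 (exact 95% interval 0.172% to 0.183%) and 0.222% of library 2 (0.215% to 0.228%), a mean of 0.199% ± 0.0312 (SD, n = 2). Without Mir1839 the shares were 0.146% and 0.137%, so this 1 gene reversed which library had the larger share. Intervals cover counting error only. Of all reads, 42.2% ± 0.987 (SD, n = 2) mapped to several places and were not assigned to any gene. All 7 heart muscle markers in the tables had reads and together took 0.856% and 0.670% of assigned reads. Any of their reads that map to several places are missing from these shares.

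Most of the 111 genes were rare. Levels are given in CPM, reads per 1000000 assigned sense-strand reads, for which 3 reads, the floor, are 1.5 CPM in library 1 and 1.61 CPM in library 2. The median of the members' mean levels was 3.13 CPM, and that of the 288 genes numbered under 1000 or named let-7 that passed the same 5 reads was 88.8 CPM. Of the members, 26 had a mean of 10 CPM or more and 22 reached 10 CPM in both libraries, against 243 of all genes. A mean of 100 CPM was reached by 3 members and by 141 genes in all. The 5 leading members took 48.1% of the members' reads in library 1 and 63.5% in library 2, and the 20 leading members took 80.3% and 86.9%. Reads from both libraries supported 106 members, whereas Mir3073a (9 reads), Mir1941 (6), Mir6897 (5) and Mir1969 (5) were seen only in library 1 and Mir3086 (7) only in library 2.

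Of the 649 high-numbered genes, 283 had a read. At the threshold itself, 18 members had exactly 5 reads, from Mir3547 with 1 and 4 reads to Mir6897 with 5 and 0, while 20 genes just outside had 4, among them Mir6980 with 2 and 2. Counts on the 2 sides of the threshold thus overlapped within each library. A further 366 genes had no read in either library, which allows a level of up to the floor in each, by assigned reads. Reads that map to several places were not assigned, so the floor does not bound genes that share their sequence with others.

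**Figure D1:**
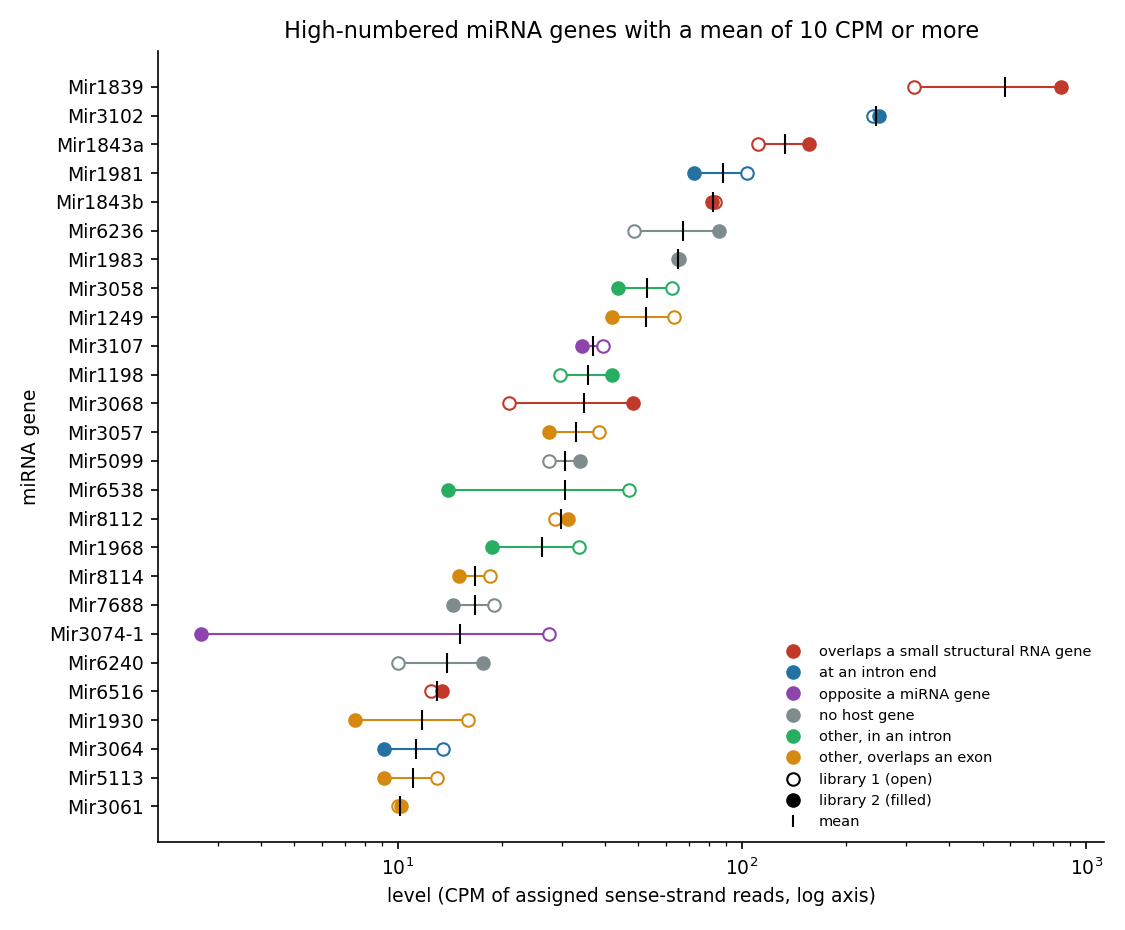
Level of each high-numbered miRNA gene with a mean of 10 CPM or more, on a log axis, with open circles for library 1, filled circles for library 2 and a vertical tick for their mean. Colours give the position class. Mir1839 leads with a mean of 581 CPM, and its libraries lie far apart, while those of Mir3102 and Mir1983 nearly coincide.

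Mir1839 led the group. It had 631 reads in library 1 (316 CPM) and 1577 in library 2 (847 CPM), a mean of 581 ± 376 CPM (SD, n = 2), and ranked 85 among all miRNA genes. The hairpin (chr7:81529916-81529988, plus strand, mm10) lies in the noncoding host gene 2900076A07Rik and overlaps a scaRNA gene of the same symbol over 66 nt. The library 2 value exceeded the library 1 value by more than the width of either counting interval (291 to 341 CPM and 805 to 890 CPM).

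Mir3102 came next, with nearly equal values. It had 481 reads (241 CPM) and 467 reads (251 CPM), a mean of 246 ± 7.18 CPM (SD, n = 2). Its hairpin (chr7:100882306-100882409, minus strand) is exactly an intron of Arhgef17. RefSeq lists 4 mature sequences from this hairpin, 2 on each arm.

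The pair Mir1843a and Mir1843b sits on separate chromosomes. Mir1843a (chr12:80391613-80391677, minus strand, in Dcaf5) had 222 and 291 reads, or 134 ± 32.0 CPM (SD, n = 2). Mir1843b (chr1:159340358-159340423, plus strand, in an intron of Cop1, a ubiquitin ligase gene) had 167 and 152 reads, or 82.6 ± 1.36 CPM. Both libraries of Mir1843a lay above both of Mir1843b. The first overlaps Scarna3b and the second Scarna3a, each over 65 nt, and the 2 hairpins share a stretch of 22 nt or more. Reads that map to several places were not assigned to any gene, so reads that match both hairpins equally are not in these counts. The order of the 2 genes is that of their remaining reads.

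Mir1981 was the next intron hairpin. It had 207 and 135 reads, or 88.0 ± 22 CPM (SD, n = 2), and fills an intron of Marc2, the gene of a mitochondrial reductase. Mir6236 had 97 and 160 reads (67.2 ± 26.4 CPM) and Mir1983 had 131 and 121 reads (65.2 ± 0.393 CPM), and neither lies in an annotated host gene on its strand. The libraries of Mir6236 differed by more than those of Mir1983, as the SDs show.

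The members below these were less abundant. Mir3058, in an intron of Nudt4 (a phosphohydrolase gene), had 125 and 81 reads, and Mir1249, which overlaps an exon of 5031439G07Rik, had 127 and 78. Mir1198 in Gripap1 had 59 and 78 reads, Mir3057 in Apba3 had 77 and 51, and Mir1968 in Grtp1 had 67 and 35. Mir5099 had 55 and 63 reads, Mir8112 in Krcc1 had 57 and 58, Mir8114 in Glul (glutamine synthetase) had 37 and 28, and Mir7688, outside any host gene, had 38 and 27. For the 9 genes named in this paragraph, the counting intervals of the libraries overlapped for all except Mir1249. It was 53.0 to 75.6 CPM in library 1 and 33.1 to 52.3 CPM in library 2. Mir3107, Mir3068 and Mir6538, described below, have levels between those of Mir3058 and Mir7688. The intervals overlapped for Mir3107, but not for Mir3068 (15.1 to 28.4 and 38.9 to 59.4 CPM) or Mir6538 (38.0 to 57.5 and 9.12 to 20.5 CPM).

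The reads were described by where each hairpin lies, which the rule did not use. In the order in which classes were assigned, 7 members overlap a small structural RNA gene, 38 others end at an intron end, 4 lie opposite another miRNA gene, and 14 of the rest have no host gene. That leaves 27 members inside introns and 21 that overlap an exon of at least 1 transcript. The first class held 31.5% of the members' reads in library 1 and 52.0% in library 2, and the second 25.4% and 18.6%. No other class passed 14.4% in a library.

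**Figure D2:**
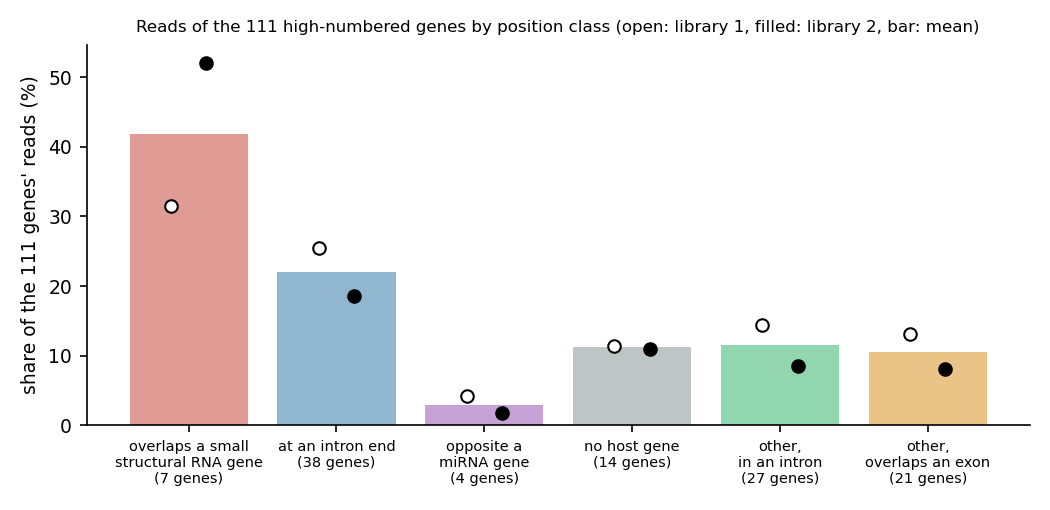
Share of the 111 genes' reads (percent, linear axis from 0) in each position class, with bars for the mean, open circles for library 1 and filled circles for library 2. The class that overlaps small structural RNA genes holds 7 genes and the largest mean share, 41.8%, and also the widest gap between libraries.

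The small structural RNA class was set by few genes. Besides Mir1839, Mir1843a and Mir1843b it holds Mir3068 (42 and 90 reads), which overlaps a snoRNA gene of its own symbol over 76 nt in Alkbh1, a demethylase gene. Mir6516 (25 and 25 reads) overlaps the scaRNA gene Gm26083 over 88 nt in Snhg20, a snoRNA host gene. Mir1949 (25 and 5 reads) overlaps a snoRNA gene of its own symbol, and Mir5121 (7 and 7 reads) overlaps Snord33 in the ribosomal protein gene Rpl13a over 30 nt. Together these 7 took a mean of 41.8% ± 14.5 (SD, n = 2) of the members' reads, and 19.5% ± 3.98 without Mir1839. A small RNA gene overlapped 6.31% of the 111 members, 0.755% of the 530 high-numbered genes under 5 reads and 0.694% of the 288 lower-numbered genes with reads. Reads of a miRNA and of a fragment of the snoRNA or scaRNA at the same place cannot be told apart in gene counts.

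A related list names 18 entries that resemble ribosomal, transfer or small nucleolar RNA, and 13 of its symbols were in the tables. Members among them were Mir1839, Mir6236, Mir1983, Mir5099, Mir6240 and Mir5100. They held 942 reads in library 1 and 1961 in library 2, or 26.6% and 47.5% of the members' reads. Mir1839, also in the class above, gave 631 and 1577 of these reads, or 17.8% and 38.2% of the members' reads by itself. The list was drawn up with earlier results of these data known and is no independent evidence about these genes. The remaining 7 entries in the tables were Mir1291, Mir2137, Mir3960, Mir5106, Mir5112, Mir6238 and Mir6239, none of which reached 5 reads.

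Intron ends were common positions. For 39 members a hairpin end lay within 10 nt of an annotated intron end, and these held 22.2% ± 4.80 (SD, n = 2) of the members' reads. In 8 of them both ends of the hairpin were the intron's ends, with a distance of 0 nt on each side, and the introns were 73 to 104 nt long. Another 29 met the intron at its 3′ end only, in introns of 76 to 9193 nt with a median of 875 nt, and 2 met it at the 5′ end only. The 3′ distance was exactly 0 in 29 of the 37 genes that met a 3′ end.

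The whole-intron hairpins ranged from abundant to barely counted. Mir3102 and Mir1981 lead them. The other members, named here after their values were seen, were Mir7018 in Hspg2 (5 and 4 reads), Mir6944 in Dbn1 (2 and 6), Mir6958 in Dennd6b (7 and 2), Mir7068 in Cherp (3 and 5), Mir3547 in Baiap3 (1 and 4) and Mir1982 in Oaz1 (3 and 2). The RefSeq table holds the hairpins of 7 of the 8, without Mir3102, at the same coordinates. All 7 start with GU and end with AG, the usual letters at the start and end of a spliced intron, capitalised below in 3 of them. Mir1981 is at chr1:184822407-184822488 on the minus strand, Mir7018 at chr4:137538286-137538370 on the plus strand and Mir7068 at chr8:72470016-72470089 on the minus strand (GRCm38.p6).
Mir1981 hairpin: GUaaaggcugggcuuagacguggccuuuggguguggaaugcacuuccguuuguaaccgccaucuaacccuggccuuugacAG
Mir7018 hairpin: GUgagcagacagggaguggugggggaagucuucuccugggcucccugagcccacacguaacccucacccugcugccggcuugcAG
Mir7068 hairpin: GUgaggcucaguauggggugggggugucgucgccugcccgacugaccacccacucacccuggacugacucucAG

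The 3′ arms of the intron-end members carried the same letters. Of 33 mature 3′-arm sequences from members that meet a 3′ intron end, 25 (75.8%) ended in AG and 23 (69.7%) in CAG. Among the other members 6 of 49 (12.2%) ended in AG, as did 211 of 847 (24.9%) over all miRNA genes in the RefSeq table. A 3′ arm that reaches the end of an intron ends in the intron's usual AG, so this contrast follows largely from the grouping by position. Searched as written at the last bases of the mature strand, the letters describe the annotated sequences and not the reads, whose ends the gene counts do not keep. The lines below show 4 that end in AG, in capitals, and then the 3′ arm of Mir3102, whose last base lies 1 nt before the end of the hairpin.
miR-6900-3p: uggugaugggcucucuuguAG
miR-7083-3p: ucugcucuccuggaccccAG
miR-3097-3p: cucagaccuuucuaccugucAG
miR-6990-3p: agcccugccucuuccuggcAG
miR-3102-3p: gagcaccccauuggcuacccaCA

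These 5 came from introns of Ndufa10 (Mir6900, 15 and 3 reads), Dock6 (Mir7083, 4 and 12 reads), Rgs12 (Mir3097, 9 and 6 reads), Esrra (Mir6990, 8 and 7 reads) and Arhgef17. Ndufa10 encodes a subunit of respiratory complex I, and Esrra a nuclear receptor that regulates mitochondrial genes. The counting intervals of the libraries overlapped for all 5 genes.

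A position at an intron end was found for 35.1% of the 111 members and 38.5% of the 530 high-numbered genes under 5 reads, against 1.74% of the 288 lower-numbered genes with reads and 11.6% of all 2202 genes. These pooled shares mix number classes that differ in both position and detection. The share of genes at an intron end was 1.33% for numbers under 1000, 5.81% from 1000 to below 2000, 18% from 3000 to below 5000, 15.7% from 5000 to below 6000 and 51.1% from 6000 upward.

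Detection also differed by number. The share of annotated genes with 5 or more reads was 54.9% (288 of 525) for numbers under 1000, 30.2% (26 of 86) from 1000 to below 2000, 24.7% (22 of 89) from 3000 to below 5000, 35.3% (18 of 51) from 5000 to below 6000 and 11.2% (47 of 419) from 6000 upward. None of the 4 genes numbered from 2000 to below 3000 had 5 reads. The order was thus not even: the class that starts at 5000 lay above its neighbours on both sides. In each of these high-numbered classes the genes at an intron end had 5 reads at least as often as the rest, on few genes below 6000. The counts were 2 of 5 genes (40%) against 24 of 81 (29.6%) from 1000, 9 of 16 (56.2%) against 13 of 73 (17.8%) from 3000, 3 of 8 (37.5%) against 15 of 43 (34.9%) from 5000 and 25 of 214 (11.7%) against 22 of 205 (10.7%) from 6000. These shares are a description and were not tested. The 24 members numbered below 2000 held 56.6% ± 8.53 (SD, n = 2) of the members' reads, and the 47 numbered 6000 or more held 14.6% ± 3.14.

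**Figure D3:**
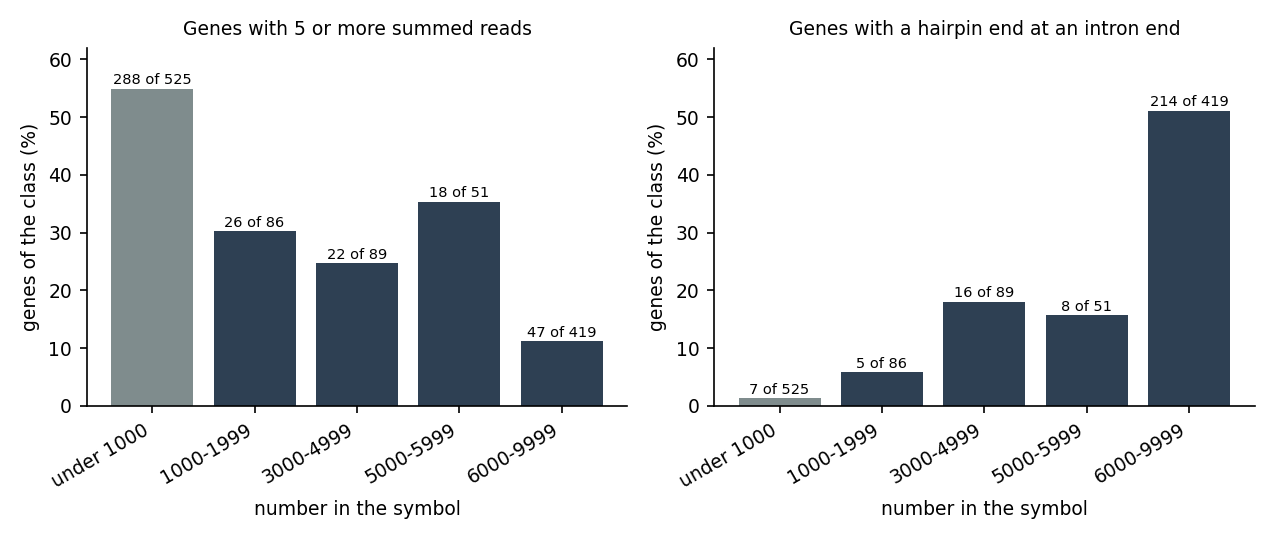
Annotated miRNA genes by the number in their symbol: the percent with 5 or more summed reads (left) and the percent with a hairpin end within 10 nt of an intron end (right), with counts above the bars. Detection runs from 54.9% under 1000 to 11.2% from 6000 upward, and intron ends from 1.33% to 51.1%. The class that starts at 2000, with 4 genes, is not drawn.

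Beyond intron ends, most members lie in other genes. A host gene on the same strand was annotated for 96 of the 111, of which 91 hosts were protein-coding; 46 members overlapped an exon of at least 1 transcript, 50 were intronic in all transcripts and 15 had no host. A hairpin that is an intron of 1 transcript counts as exonic here where another transcript holds it in an exon, as in Arhgef17 at Mir3102. Host transcripts were not measured in these libraries. Hairpins had a median length of 77 nt (43 to 137) and a median GC content of 56.1% (37.0% to 83.1%), against 53.0% in high-numbered genes under 5 reads and 48.6% in lower-numbered genes with reads.

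Clusters and copies were rare. Another miRNA gene lay within 10 kb on the same strand for 6 members (5.41%), against 58.0% of the lower-numbered genes with reads. A stretch of 22 nt was shared with another miRNA gene by 7 members (6.31%), against 20.8%. The high-numbered genes under 5 reads were like the members in both, at 6.42% and 7.36%. Counting all annotated genes away from the hairpin itself, 13 members shared such a stretch: that of Mir8111 (14 and 5 reads) occurred in 852 other genes, that of Mir1934 (11 and 7 reads) in 117, that of Mir8112 in 22 and that of Mir6236 in 4. Reads from these repeats that map to several places are not in the counts.

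Seeds were compared with those of lower-numbered miRNAs and among the members. The 167 mature sequences held 165 distinct seeds, and 8 members shared one with a lower-numbered miRNA. Seeds of the high-numbered genes outside the group are not covered by these counts. No share for other sets of genes was computed beside them. Mir6958 shares UGGGAGA with the 3′ arms of the Mir30c genes, Mir1943 shares AGGGAGG with miR-149-3p, Mir1947 shares CACUGAG with miR-674-5p, and Mir6240 shares CAAAGCA with miR-330-3p. In these pairs the lower-numbered gene had more reads: Mir30c-2 had 1854 and 1743 against 7 and 2 for Mir6958, and Mir149 had 45015 and 32451 against 11 and 12 for Mir1943. Mir674 had 1884 and 5656 reads against 18 and 13 for Mir1947, and Mir330 had 451 and 343 against 20 and 33 for Mir6240. The order was the opposite for Mir3102, whose 5′ arm shares UGAGUGG with miR-702-5p, since Mir702 had 24 and 25 reads. It was also the opposite for Mir1983 (131 and 121 reads), which shares UCACCUG with miR-412-3p of Mir412 (7 and 3 reads). Both arms of a hairpin are counted in 1 gene, so the share of reads that carried the common seed is unknown. The remaining pairs were Mir6966 (9 and 5 reads) with miR-542-5p of Mir542 (590 and 458 reads), and Mir3475 (4 and 1 reads) with miR-96-3p of Mir96 (1 and 2 reads), too few to order.

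Within the group, a common seed joined only 2 pairs. The whole-intron hairpins Mir7018 and Mir7068, printed above, share CACCCUG on their 3′ arms, and Mir7689 (6 and 8 reads) and Mir5620 (2 and 3 reads) share CGAGGCA on their 5′ arms. Outside the seed the sequences of each pair differ.
miR-7018-3p: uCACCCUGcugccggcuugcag
miR-7068-3p: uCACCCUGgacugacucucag
miR-7689-5p: cCGAGGCAgccuggcuuag
miR-5620-5p: aCGAGGCAggggcuuugacugug

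Opposite another miRNA gene lie 4 members, which depend on how strand was counted. Mir3107, opposite Mir486 (an erythroid and muscle miRNA) over 90 nt, had 79 and 64 reads, against 2386 and 2163 for Mir486, or 3.20% and 2.87% of the pair. Mir3065 had 5 and 3 reads, against 406 and 315 for Mir338 (1.22% and 0.943% of the pair). Mir3074-1, in an intron of Fancc (a gene of the Fanconi anaemia DNA repair complex), overlaps Mir24-1 over 68 nt and had 55 and 5 reads, against 151 and 249 for Mir24-1. Its share of the pair was thus 26.7% in library 1 and 1.97% in library 2. Mir3073a had 9 and 0 reads and its partner Mir3073b none. Mir3107 shares a stretch of 22 nt or more with Mir486, and Mir3074-1 with Mir3074-2 and Mir24-2, so how well these reads are placed is uncertain.

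The libraries were compared gene by gene, since how a gene's reads split between the libraries does not depend on their sum, which chose the members. An exact two-sided conditional binomial test was run on all 344 genes with 10 or more summed reads, with Benjamini-Hochberg adjustment over all of them. A gene counted as differing where its adjusted p was below 0.05 and its CPM differed at least 2-fold. The p-values cover counting error between these 2 libraries only. By this rule 61 genes, 17.7% of those tested, differed (5.52% higher in library 2 and 12.2% higher in library 1). Of the 61 members tested, 8 differed, a share near that of all genes. The 50 members under 10 reads were not tested; they held 5.64% and 3.01% of the members' reads.

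Higher in library 2 were 2 members, both of which overlap a small structural RNA gene. For Mir1839 (631 and 1577 reads) the log2 ratio of library 2 to library 1 was 1.42, with an adjusted p of 4.54e-107 in the exact binomial test. For Mir3068 (42 and 90 reads) it was 1.19, with an adjusted p of 1.53e-05. Other members of that class did not follow: the log2 ratio was 0.49 for Mir1843a, under 2-fold, -0.03 for Mir1843b, 0.10 for Mir6516 and 0.10 for Mir5121, and -2.11 for Mir1949.

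Higher in library 1 were 6 members from several position classes. Mir3074-1 had the largest ratio, a log2 of -3.23 (55 and 5 reads, exact binomial adjusted p = 1.68e-10), while its opposite gene Mir24-1 had a log2 ratio of 0.82, under 2-fold. Mir6538, in an intron of the ubiquitin ligase gene Rnf144a, had 94 and 26 reads and a log2 ratio of -1.73 (exact binomial adjusted p = 9.21e-09). Mir1949 had a log2 ratio of -2.11 (25 and 5 reads, exact binomial adjusted p = 0.00107), and Mir6900 one of -2.04 (15 and 3 reads, exact binomial adjusted p = 0.0172). Mir1930 in Ube2g2 had 32 and 14 reads (log2 ratio -1.06, exact binomial adjusted p = 0.0335), and Mir7213 in Pdgfb, a growth factor gene, had 25 and 10 (log2 ratio -1.18, exact binomial adjusted p = 0.0491).

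**Figure D4:**
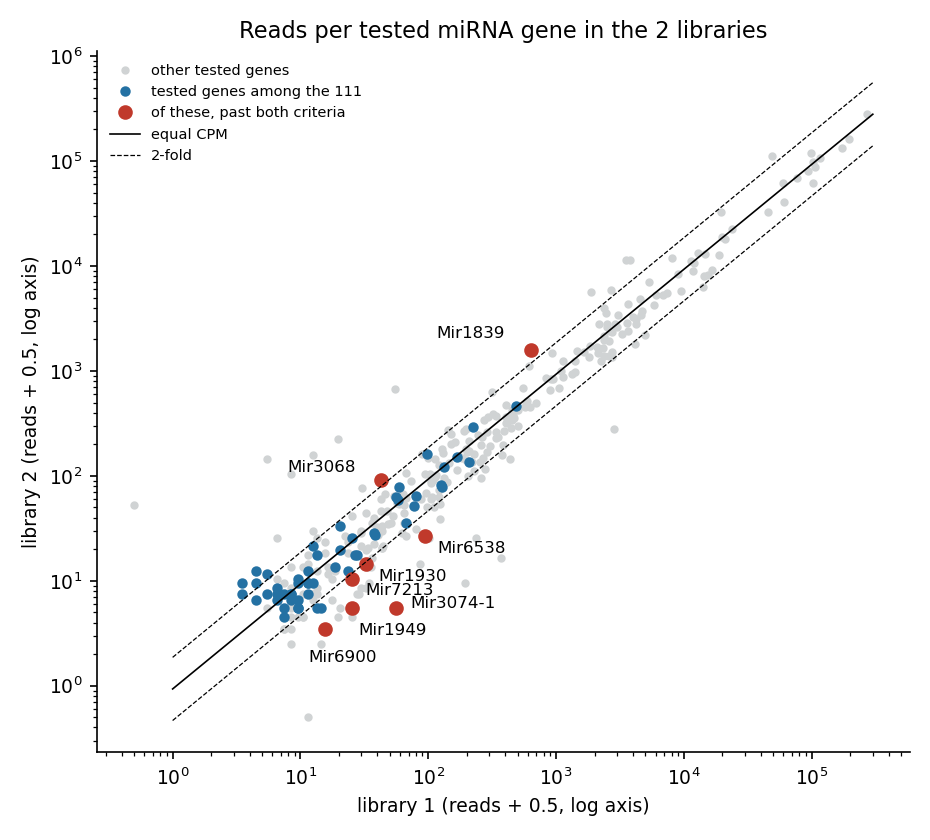
Reads per gene in library 1 and library 2, each plus 0.5 on log axes, for the 344 tested miRNA genes. Grey points are other genes, blue points the tested members and red points the 8 members past both criteria, with the solid line at equal CPM and dashed lines at 2-fold. Mir1839 stands apart above the line with 631 and 1577 reads, and the 6 labelled points below it had 15 to 94 reads in library 1.

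Scaling changed part of these calls. With TMM factors every log2 ratio moved up by 0.19, and 9 members differed (background 16.3%), 5 of them higher in library 2 (background 8.43%) and 4 higher in library 1 (background 7.85%). Mir1930 (log2 -0.87) and Mir7213 (-0.99) then fell under the criteria, and Mir6236 (1.01), Mir6240 (1.00) and Mir7083 (1.77) passed them. The 6 others remained. The median log2 ratio of the 61 tested members was -0.08 and became 0.11 with TMM, against -0.19 and 0.00 over all tested genes.

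Most tested members differed less. The larger CPM was within 1.5 times the smaller for 35 of the 61 tested members, and for 198 of all 344 tested genes. Among the abundant ones, the log2 ratio was 0.06 for Mir3102, -0.03 for Mir1843b, -0.01 for Mir1983 and 0.13 for Mir8112. By the adjusted p alone 14 of the 61 tested members (23.0%) differed, against 186 of 344 genes (54.1%). These shares are not like for like, because an exact test on counts finds a given ratio less often where reads are few. The median mean level was 3.13 CPM for all members and 88.8 CPM for the lower-numbered genes with reads. Whether members differ less than other genes with similar numbers of reads was not tested.

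Marker lists of other cell types differed between the libraries to unlike degrees. Smooth muscle markers took 3.95% of assigned reads in library 1 and 3.87% in library 2, and leukocyte markers 0.689% and 0.678%. Erythroid markers took 0.245% and 0.197%, and the endothelial marker 4.89% and 6.38%. The pancreatic list (4 of 4 with reads) summed to 38 and 16 reads. The pluripotent stem cell list (4 of 4 with reads) summed to 25 reads in library 1 and 455 in library 2, and the epithelial list (7 of 7) to 920 and 1764. The skeletal muscle list (2 of 2) summed to 197 and 10 reads and the hepatic marker Mir122 to 237 and 25. The neuronal list summed to 349 and 234 reads, all from 2 of its 7 genes, and the other 5, among them all 3 Mir124a genes, had no read. Their part in the members' differences was not tested. In whole tissue, fewer cells of a type and less RNA per cell cannot be told apart.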

How the data were processed

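Short RNAs from mouse heart were counted per miRNA gene in 2 libraries. The deposited tables hold raw read counts that the authors had not normalized, in a column each for sense, antisense and both strands, told apart by their values. The text deposited beside them names mm10 and annotation M21, with aligner and counter not given in the sources used here. Each table's 4 rows that name no gene (unmapped, several places, no feature, ambiguous) stayed out of totals and tests: 14.9% and 13.8% of reads were unmapped and 41.5% and 42.9% mapped to several places. No molecular identifiers are stated, so intervals and floors cover counting error only.

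The sense column was scaled to its gene total. All 2202 gene identifiers matched GENCODE M21, which gave symbols, hosts, introns (an intron end counts within 10 nt) and small RNA genes. RefSeq (GRCm38.p6) gave sequences. With 1 group of 2 libraries, edgeR's quasi-likelihood test has no residual degrees of freedom. An exact conditional binomial test (SciPy 1.17.1) was therefore used on genes with 10 or more reads, with Benjamini-Hochberg adjustment at 0.05 and a 2-fold ratio. It was tried on simulated counts that held counting error only, the spread the test assumes. That trial cannot show how the test behaves where libraries differ by more than counting error. Log2 ratios had 0.5 added to each count. edgeR 4.0.16 gave TMM factors and DESeq2 1.42.0 size factors as alternatives.

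The members, lists and tests were chosen with earlier results of these data known. The genes named are the 20 highest, members past the test at 10 CPM or more with the 5 largest ratios in each direction, members opposite a miRNA gene or at an intron end at 10 CPM or more, members that overlap a small RNA gene, members with 4 or more antisense reads and no miRNA gene opposite, and genes at the threshold. Other members are named as examples, chosen after their values were seen.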

Additional observations from a re-analysis of the deposited data

Results flagged for a closer look

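With 2 libraries in 1 group, no sample could be singled out within a group and no effects could be compared between groups. Signal outside the sense-strand counts of the 111 genes appeared in a pair of places. Mir5620, which has no annotated miRNA gene on the opposite strand, had 4 antisense reads in library 1 and 0 in library 2, beside 2 and 3 sense reads. The gene mmu-mir-3535 had 59 sense reads in library 1 and 54 in library 2; its number is high, but its symbol does not start with Mir, so the rule passed it over.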

How the results depend on the processing

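Among the 27 tested genes named by the rule, no ratio past the criteria changed sign under TMM, DESeq2 size factors, a pseudocount of 1 or both strands together (except Mir3074-1, which has no reads and so no ratio under the last), while the ratios of Mir1843b and Mir1983, which were near 0 and not called, became 0.16 and 0.18 with TMM. The members' share of reads, 0.199%, was 0.252% with both strands counted, 0.0745% of all reads and 0.141% without Mir1839. It was 0.177% to 0.222% with each replicate left out. The gene total is smaller with both strands counted: Mir1839 kept its 631 and 1577 reads, and its mean level went from 581 to 760 CPM. Instead of 111 members there were 280 at a minimum of 1 read, 61 at 10, 36 at 20, 54 with 5 reads in each library, and 66 to 76 with each replicate left out. Members that differed between the libraries numbered 14 with no fold threshold (4 higher in library 2, 10 in library 1) and 4 at 3-fold (0 in library 2, by the same exact test), and 5 were higher in library 2 with TMM or DESeq2. Of all genes, 186 differed with no fold threshold (61 and 125), 105 at 1.5-fold (35 and 70) and 31 at 3-fold (10 and 21), and 29 and 27 with TMM or DESeq2. The members' median log2 ratio was 0.11 with TMM or DESeq2, -0.35 at 5 summed reads and -0.19 at 20. Without Mir1839, an alternative chosen after seeing the data, class shares were 30.8% at intron ends, 19.5% at small RNA genes and 16.0% with no host. With each replicate left out they were 18.8% to 25.6%, 31.5% to 52.0% and 11.1% to 11.6%, and 1.75% to 4.17% opposite a miRNA gene. That last share was 0% with both strands counted, because overlapping reads are then ambiguous. Mir3074-1 is among the members lost from the calls under that setting. Where a setting's own construction (fewer genes, another minimum) does not give it, the cause was not tested. Both libraries are needed for any call, so none was made without a replicate. No paired analysis was possible because both libraries belong to 1 group. The 50 members under 10 reads allow no statement on differences.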

Other observations

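The values of 4 members not described above or only in passing are given here by their host genes. They were chosen after their values were seen, from 96 members with a host, and stand for no group. The host transcripts were not measured. Mir1960, in an intron of Hadhb (a subunit of the mitochondrial trifunctional protein of fatty acid oxidation), had 13 and 17 reads, a mean of 7.81 ± 1.86 CPM (SD, n = 2). Mir7051, in Etfb (a subunit of the electron transfer flavoprotein), had 5 and 11 reads, or 4.20 ± 2.41 CPM. Mir6990, in Esrra, had 8 and 7 reads, or 3.88 ± 0.172 CPM, and Mir3100, in Dmpk (the kinase gene of myotonic dystrophy), had 3 and 7 reads, or 2.63 ± 1.60 CPM. Of these, Mir7051, Mir6990 and Mir3100 end at the 3′ end of an intron within 10 nt. The GC content of Mir5126 (12 and 21 reads) was the highest among the members, 83.1%, and that of Mir1839 the lowest, 37.0%.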
